A study of Mus musculus with 21 samples.

Results

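A set of 10 Notch pathway genes was followed through 21 libraries of mouse breast cancer cells: the receptors Notch1, Notch2, Notch3 and Notch4, the ligands Jag1 and Jag2, the fringe enzymes Lfng and Mfng, and the target genes Hes1 and Hey1. The 10 members were picked by symbol from the 55573 genes of the deposited tables, and each symbol matched 1 gene. They were chosen with earlier results of these data known, so counts of calls among them are descriptions. Of the members, 8 passed the filter on low counts and were tested; Notch3 and Hey1 did not pass it.

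The study asked how ZBTB18, a zinc finger repressor of transcription, alters gene expression in E0771, a mouse mammary carcinoma line, and it sequenced polyA-selected RNA of bulk cultures. The 7 groups of 3 libraries all descend from E0771 cells that carry GFP. One group overexpressed ZBTB18, carried an inducible TGFBR2 (the ligand-binding subunit of the TGF-β receptor), and was given doxycycline at 1 mg/mL, as the label states the dose, with TGF-β1 at 2 ng/mL; these are called iTGFBR2 cells given TGF-β1. A second group was the same line given doxycycline and vehicle (iTGFBR2 cells given vehicle). The others were ZBTB18OE, which overexpressed ZBTB18 and had no inducible receptor; M11GFP and M12GFP, each derived from a spontaneous lung metastasis of E0771GFP; EV, which carried an empty vector; and E0771GFP, the parental line, with no treatment. Each engineered or metastasis-derived group is 1 line, the labels do not say whether a line is clonal, and they do not say that the 3 libraries of a group came from separate cultures, so p-values measure the spread between these libraries, which may be technical.

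Notch receptors are single-pass proteins that are cut first by furin on the way to the cell surface, then by an ADAM protease when a ligand on a neighbouring cell pulls on them, and then by γ-secretase, which frees the intracellular part. That part enters the nucleus, joins the DNA-binding protein RBPJ and a Mastermind coactivator, and switches on genes such as Hes1 and Hey1, both repressors of the bHLH class. Jagged and Delta-like proteins are the ligands. Fringe enzymes lengthen O-fucose sugars on the receptors' EGF repeats and thereby shift which ligand class a receptor answers to. In the mammary gland the pathway is known for its part in luminal cell fate, and in breast cancer for its links to stem-like growth.

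Library totals ranged from 24208564 to 90518866 counts. E0771GFP replicate 1 stood apart: the ribosomal RNA-like gene Gm42418 took 14% of its counts, against 0.0307 to 0.0918% in the other 20 libraries, so calls against the parental line, and its main levels and shares, are also given without it. Zbtb18 had 106 to 124 CPM in ZBTB18OE libraries and 24.1 to 25.7 CPM in EV libraries, and Tgfbr2 had 566 to 626 CPM in iTGFBR2 cells given vehicle and 1.47 to 1.97 CPM in ZBTB18OE cells (CPM values are read counts scaled to a common library total after TMM correction). The high Zbtb18 and the high Tgfbr2 are as the labels state. The labels give no Tgfbr2 level for ZBTB18OE cells, where it was below that of both comparators. Tgfbr2 averaged 26.6 CPM in EV cells (log2 fold change of ZBTB18OE against EV -3.94, edgeR adjusted p = 6.51e-17). It averaged 13.8 CPM in E0771GFP cells (log2 fold change of ZBTB18OE against E0771GFP -2.99, edgeR adjusted p = 1.15e-14). Of 7 mammary epithelial markers 3 passed the filter (Krt8, Krt18 and Epcam), and Krt8 carried nearly all of their summed 111 to 349 CPM; Krt5, Krt14, Cdh1 and Elf5 did not pass. Markers of other cells were present in part. The fibroblast list of 7 genes summed to 63.3 to 149 CPM, most of it Pdgfra, and the blood list of 8 genes to 3.75 to 70.2 CPM, most of it Cd68. The endothelial list of 8 genes summed to 0.821 to 5.62 CPM and the lung epithelial list of 7 genes to 0.155 to 1.53 CPM. Cd3e, Cldn5, Sftpa1, Scgb1a1 and Nkx2-1 were at 0 in every library.

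ZBTB18 binds DNA, and 4 members were lower in ZBTB18OE cells than in EV cells, so the bases before the start sites of those with an entry are shown first. Promoter entries were found for 7 of the 10 members in the RefSeq table (build GRCm38.p6), all but Mfng, Hes1 and Hey1. The 250 bases before the RefSeq start site were searched on both strands. The letters sought were CAGATG, the core of the E-box bound by ZBTB18, TGGGAA, the core bound by RBPJ, and GTCTAGAC, a SMAD-binding palindrome. These start sites differ from the gene bounds of the GENCODE annotation. The Jag2 and Notch1 windows lie wholly inside those bounds. The Lfng, Notch4, Notch2 and Jag1 windows run past the GENCODE gene start, and only the Notch3 window lies wholly before it. Offsets below count from the RefSeq start site. Capitals mark TGGGAA or its reverse complement TTCCCA. Sequences are written 5′ to 3′ on the strand of the gene: Jag2 is chr12:112929496-112929745 on the minus strand, Lfng is chr5:140607091-140607340 on the plus strand and Notch4 is chr17:34564045-34564294 on the plus strand.
Jag2: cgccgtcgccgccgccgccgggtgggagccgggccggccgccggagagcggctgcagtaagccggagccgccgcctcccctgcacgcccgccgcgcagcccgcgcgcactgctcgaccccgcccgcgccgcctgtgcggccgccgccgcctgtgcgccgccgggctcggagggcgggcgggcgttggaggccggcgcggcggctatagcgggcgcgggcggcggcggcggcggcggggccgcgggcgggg
Lfng: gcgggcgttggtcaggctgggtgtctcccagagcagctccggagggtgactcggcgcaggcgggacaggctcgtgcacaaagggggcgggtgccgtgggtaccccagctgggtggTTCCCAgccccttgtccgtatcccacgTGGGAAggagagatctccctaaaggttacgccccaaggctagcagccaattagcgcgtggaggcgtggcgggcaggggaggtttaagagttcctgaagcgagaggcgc
Notch4: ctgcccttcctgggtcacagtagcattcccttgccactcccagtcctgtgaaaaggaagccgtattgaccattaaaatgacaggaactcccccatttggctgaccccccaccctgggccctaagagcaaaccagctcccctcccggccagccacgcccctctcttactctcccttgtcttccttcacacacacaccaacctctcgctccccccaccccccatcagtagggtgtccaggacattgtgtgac
The 3 windows differ in composition: Jag2 was 87.2% G or C with 54 CpG pairs, Lfng 66% with 18 and Notch4 58.4% with 4, against medians of 52.4% and 6 over all 32851 promoters. CAGATG occurred in none of the 7 windows and in 14.4% of all promoters. TGGGAA occurred in Lfng at 108 bases before the start site on the gene's strand (position -108) and, as the reverse complement, at -135; it was in 21.6% of all promoters and in none of the other 6 windows. GTCTAGAC occurred in none of the 7 and in 0.167% of all. A match or its absence describes letters in a window of this length and nothing more.

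Levels of different genes were compared on TPM, which allows for transcript length. Notch2 led the receptors in every group mean, with 21.1 to 34.3 TPM in the 6 groups other than E0771GFP and 10.8 TPM in E0771GFP. Notch1 stood second, with 10.9 to 21.2 TPM in those 6 groups and 8.87 TPM in E0771GFP. Notch4, a receptor best known from endothelium, reached 2.98 TPM in iTGFBR2 cells given TGF-β1 and was lowest in E0771GFP cells, at 0.3 TPM. TPM values of the parental line are low across the board: the median gene was 0.14 to 0.22 higher on the log2(TPM + 1) scale in ZBTB18OE, EV, M11GFP and M12GFP cells than in E0771GFP cells. The parental means without E0771GFP replicate 1, over 2 libraries, were 11.7 TPM for Notch2, 10.8 TPM for Notch1 and 0.35 TPM for Notch4.

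Among the ligands, Jag1 had 3.57 to 6.8 TPM, while Jag2 passed 1 TPM only in EV cells, at 2.46 TPM. Jag2 made up 32.4 ± 3.2% of the summed Jagged TPM in EV cells and 4.96 to 14.4% in the means of the other 6 groups (SD, n = 3). The parental line had 3.7 TPM of Jag1 and a Jag2 share of 9.56% without its replicate 1. Hes1 had 9.84 TPM in M12GFP cells and 19.7 to 27.7 TPM in the other groups.

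Notch3 and Hey1 were barely detected. Notch3 collected 52 reads in all, spread over 17 libraries, and 25 of these lay in the EV libraries, as 16, 4 and 5 reads. Hey1 collected 5 reads, 2 in M11GFP replicate 3 and 3 in M12GFP replicate 1. A count of 3 reads corresponds to 0.0333 to 0.122 CPM, depending on the library. Of the other HES and HEY genes on the list, Hes7 passed the filter, with group means of 5.13 to 14.4 CPM, Heyl did not pass it, and Hes5 and Hey2 had 0 reads in every library.

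**Figure D1:**
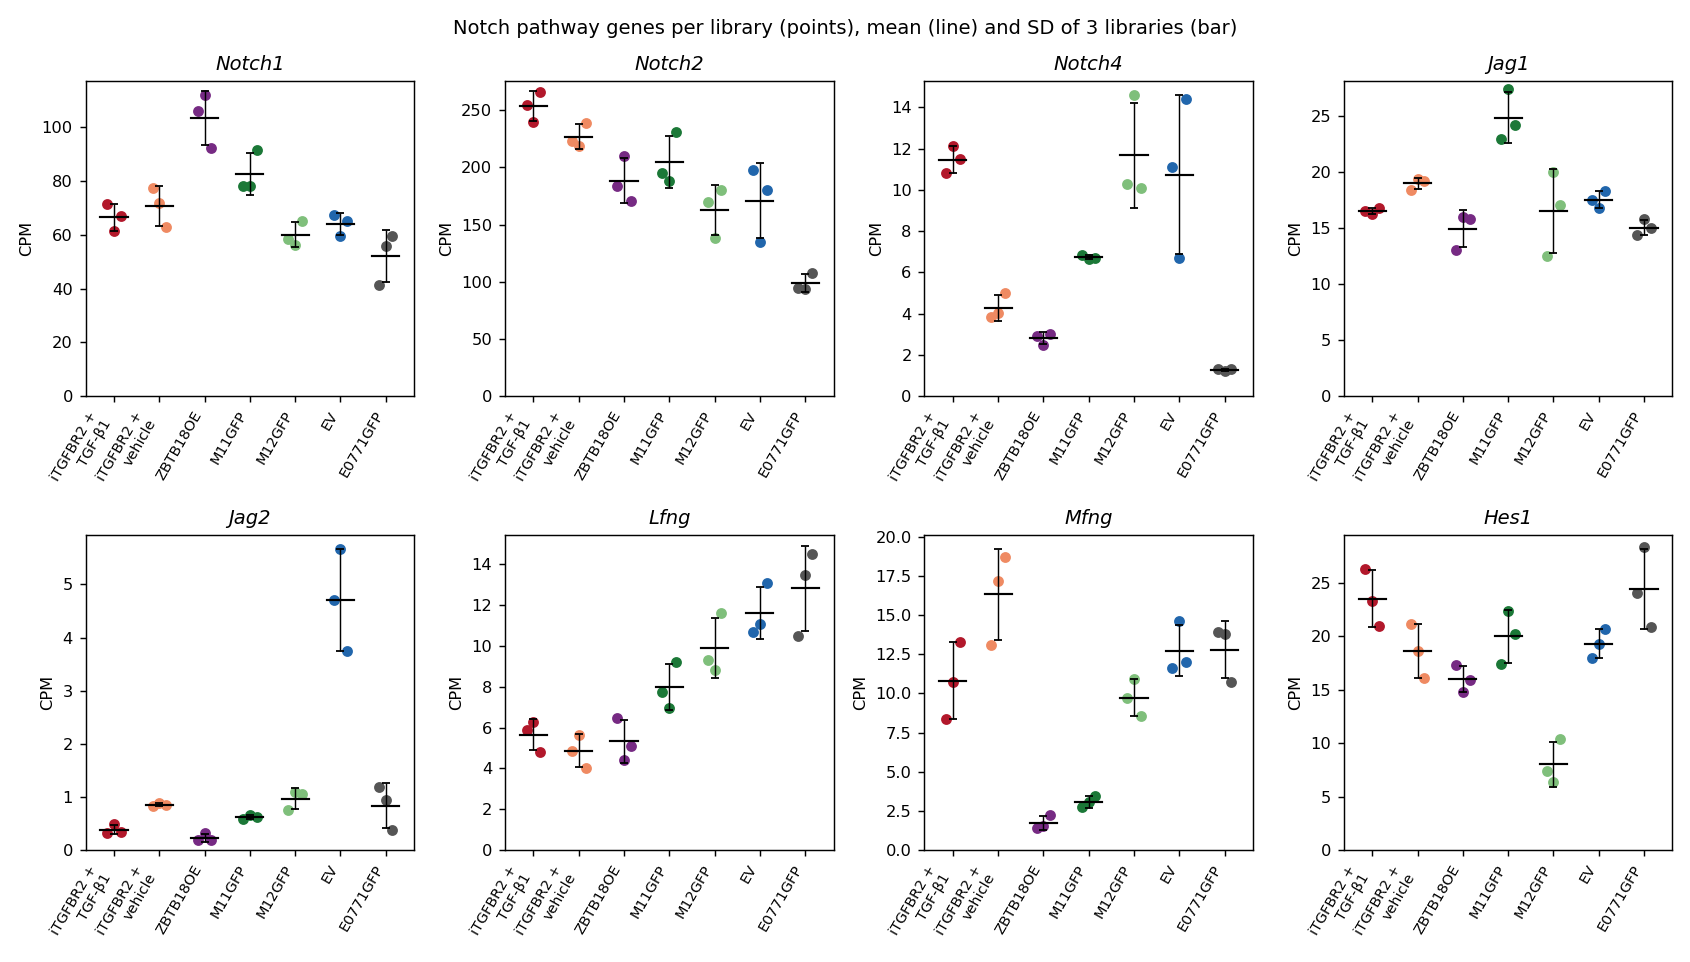
CPM (vertical axis, linear) of the 8 tested members in each of the 7 groups, with 1 point per library, a line at the mean and a bar for the SD of 3 libraries. Jag2 is high in EV cells alone, with 3.75 to 5.66 CPM, and Mfng is lowest in ZBTB18OE cells, with 1.41 to 2.26 CPM.

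ZBTB18OE cells had more Notch1 and less Notch4, Jag2, Lfng and Mfng than EV cells. Among the tested members the largest difference was in Jag2, a Serrate-type ligand, at 20.5-fold lower in ZBTB18OE cells, followed by Mfng (manic fringe) at 7.33-fold lower. Of the 8 tested members 5 were called at an adjusted p under 0.05, 1 higher and 4 lower, while 28.4% of all tested genes were called (14% higher, 14.5% lower). The median log2 fold change of the tested members was -0.7, against 0.01 over all tested genes. In bulk RNA, fewer cells that express a gene and less RNA per cell cannot be told apart. The mammary epithelial list summed to 199 to 215 CPM in ZBTB18OE and 257 to 326 CPM in EV libraries, the fibroblast list to 115 to 146 CPM in ZBTB18OE and 107 to 110 CPM in EV libraries, and the blood list to 3.75 to 7.35 CPM in ZBTB18OE and 7.92 to 8.47 CPM in EV libraries; their part in these differences was not tested.

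Notch1 had 106, 112 and 92.3 CPM in the 3 ZBTB18OE libraries, against 67.4, 59.5 and 65 CPM in the EV libraries. Every ZBTB18OE library lay above every EV library, and the log2 fold change was 0.69 (SE 0.12, adjusted p = 0.000107 in edgeR's quasi-likelihood test). Notch4 had 2.92, 2.49 and 3.03 CPM in ZBTB18OE cells, against 11.1, 6.7 and 14.4 CPM in EV cells. The groups did not overlap although the EV libraries differed widely among themselves, and the log2 fold change was -1.93 (SE 0.2, adjusted p = 2.93e-07 in edgeR). Notch2, the most abundant receptor, averaged 189 ± 20 CPM in ZBTB18OE cells and 171 ± 32 CPM in EV cells (SD, n = 3 each), with overlapping libraries and a log2 fold change of 0.14 (95% interval -0.12 to 0.4, edgeR adjusted p = 0.437).

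Jag2 had 0.193, 0.311 and 0.182 CPM in ZBTB18OE libraries, which is 10 to 15 reads each, against 4.7, 5.66 and 3.75 CPM in EV libraries. The log2 fold change was -4.36 (SE 0.32, edgeR adjusted p = 1.64e-09), with no overlap. Jag1, the more abundant Jagged ligand, averaged 15 ± 1.6 CPM in ZBTB18OE cells and 17.6 ± 0.74 CPM in EV cells (SD, n = 3 each); the log2 fold change of -0.23 (95% interval -0.49 to 0.03) did not pass (edgeR adjusted p = 0.176).

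Mfng had 1.41, 1.52 and 2.26 CPM in ZBTB18OE libraries, against 11.6, 14.6 and 12 CPM in EV libraries. All ZBTB18OE values were far below all EV values, with a log2 fold change of -2.87 (SE 0.2, edgeR adjusted p = 8.24e-10). Lfng (lunatic fringe) had 6.47, 4.42 and 5.09 CPM in ZBTB18OE libraries, against 10.7, 11.1 and 13.1 CPM in EV libraries. It was also lower without overlap, with a log2 fold change of -1.13 (SE 0.17, edgeR adjusted p = 3.56e-05). Hes1, the target gene, had 17.3, 14.8 and 15.9 CPM in ZBTB18OE libraries, against 18, 19.3 and 20.7 CPM in EV libraries. Its ranges did not overlap, yet the log2 fold change of -0.27 (95% interval -0.59 to 0.06) did not pass (edgeR adjusted p = 0.207); in the 6 libraries of this comparison alone it did (edgeR adjusted p = 0.0281).

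For Notch3, the pooled counts were 2 reads in ZBTB18OE cells and 25 reads in EV cells, a ratio of 0.0797 per scaled library (exact 95% interval 0.00915 to 0.32, counting error only). Without the filter on low counts its edgeR adjusted p was 0.00842. The gene overlaps exons of Gm17276 on the opposite strand, which had at most 0.0111 CPM.

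Of the 49 other pathway genes 41 were tested, and 9 were called between ZBTB18OE and EV cells, 4 higher and 5 lower. Of all tested genes 28.4% were called in this comparison (14% higher, 14.5% lower). Dll1, a Delta-like ligand, had 0.908, 1.39 and 1.59 CPM in ZBTB18OE libraries, against 3.95, 3.33 and 5.02 CPM in EV libraries; the log2 fold change was -1.66 (SE 0.23, edgeR adjusted p = 1.41e-05). Dll1 and Jag2 were thus both lower in ZBTB18OE than in EV cells, with no overlap between those groups. Against E0771GFP cells Jag2 was lower as well (log2 fold change -1.86, edgeR adjusted p = 9.17e-05), but Dll1 was not called. Dll1 averaged 1.3 ± 0.35 CPM in ZBTB18OE cells and 1.58 ± 0.25 CPM in E0771GFP cells (SD, n = 3 each), with overlapping libraries. Its log2 fold change against E0771GFP was -0.28 (edgeR adjusted p = 0.339). Rbpj, the DNA-binding partner of the receptors, averaged 86.7 ± 3.5 CPM in ZBTB18OE cells and 118 ± 3.4 CPM in EV cells (SD, n = 3 each), a log2 fold change of -0.45 (SE 0.093, edgeR adjusted p = 0.000909). Psen2, a catalytic subunit of γ-secretase, and the Mastermind gene Maml3 were higher, by 0.56 and 0.46 on the log2 scale (edgeR adjusted p = 0.00393 and 0.00122). None of the 4 tested genes on the list of other targets was called.

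Against the parental line, ZBTB18OE cells differed in 7 of 8 tested members, 3 higher and 4 lower; 61.7% of all tested genes were called here (29.9% higher, 31.8% lower), so calls are common in this comparison. This comparison shares its ZBTB18OE libraries with the one against EV. Mfng and Lfng were lower by as much as against EV, with log2 fold changes of -2.88 (SE 0.2, edgeR adjusted p = 3.03e-10) and -1.27 (SE 0.17, edgeR adjusted p = 2.3e-06). Mfng had 13.9, 13.8 and 10.7 CPM in E0771GFP libraries, and Lfng 10.5, 13.5 and 14.5 CPM. Jag2 was lower as well, at 0.229 ± 0.072 CPM in ZBTB18OE cells and 0.831 ± 0.42 CPM in E0771GFP cells (SD, n = 3 each), a log2 fold change of -1.86 (SE 0.34, edgeR adjusted p = 9.17e-05).

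Notch4 differed in sign by comparator: its log2 fold change in ZBTB18OE cells was 1.15 against E0771GFP (SE 0.23, edgeR adjusted p = 0.000192) and -1.93 against EV. The E0771GFP libraries had 1.3, 1.21 and 1.31 CPM, below both other groups. Notch1 and Notch2 were higher than in E0771GFP cells, with log2 fold changes of 0.99 (edgeR adjusted p = 4.41e-07) and 0.93 (edgeR adjusted p = 1.86e-06). Hes1 was lower, at 16 ± 1.3 CPM in ZBTB18OE cells and 24.4 ± 3.7 CPM in E0771GFP cells (SD, n = 3 each), with a log2 fold change of -0.61 (SE 0.15, edgeR adjusted p = 0.00166). All 7 calls also passed without E0771GFP replicate 1, with log2 fold changes of 0.86 for Notch1, 0.92 for Notch2, 1.18 for Notch4, -1.52 for Jag2, -1.38 for Lfng, -2.80 for Mfng and -0.60 for Hes1. On log2(TPM + 1) and log2(TPM + 0.1) in limma, Jag2 (adjusted p = 0.271 and 0.229) and Hes1 (0.267 on both) did not pass. Notch4 did not pass on log2(TPM + 1) (limma adjusted p = 0.0545).

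Of the 41 other pathway genes 25 were called between ZBTB18OE and E0771GFP cells, 18 higher and 7 lower, where 61.7% of all tested genes were called (29.9% higher). All 10 genes of the nuclear complex list were called, 8 of them higher. When E0771GFP replicate 1 was left out, 24 of 42 tested pathway genes and 8 of the 10 nuclear complex genes were called, all 8 higher, and 55.2% of all tested genes. Maml3 averaged 77.3 ± 8.5 CPM in ZBTB18OE cells and 31 ± 1.7 CPM in E0771GFP cells, and Mib1, a ubiquitin ligase that helps ligands to be internalised and so to activate receptors, averaged 218 ± 16 CPM in ZBTB18OE cells and 100 ± 11 CPM in E0771GFP cells (SD, n = 3 each). Their log2 fold changes were 1.32 and 1.12 (edgeR adjusted p = 1.05e-09 and 2.4e-09). Hes7, a HES repressor known from the somite clock, and Dtx3, a Deltex ubiquitin ligase, were lower, by -1.32 and -1.16 on the log2 scale (edgeR adjusted p = 0.000323 and 0.000369). All 4 calls passed without E0771GFP replicate 1, with log2 fold changes of 1.34 for Maml3, 1.13 for Mib1, -1.13 for Hes7 and -1.12 for Dtx3.

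The empty-vector line itself differed from the parental line in 4 of 8 tested members, all higher in EV cells; 58% of all tested genes were called (28.9% higher, 29% lower). These EV libraries are also the comparator of ZBTB18OE cells above. Of the tested members Notch4 showed the largest change, with 10.7 ± 3.9 CPM in EV cells and 1.27 ± 0.056 CPM in E0771GFP cells (SD, n = 3 each), a log2 fold change of 3.08 (SE 0.22, edgeR adjusted p = 1.93e-09). Jag2 had 4.7, 5.66 and 3.75 CPM in EV libraries, against 1.19, 0.935 and 0.369 CPM in E0771GFP libraries. It was higher in EV cells without overlap, with a log2 fold change of 2.49 (SE 0.28, edgeR adjusted p = 5.38e-07). Notch2 was higher by 0.79 (SE 0.12, edgeR adjusted p = 2.16e-05).

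Notch1 had overlapping libraries, 67.4, 59.5 and 65 CPM in EV cells against 41.3, 55.9 and 59.6 CPM in E0771GFP cells, and its log2 fold change of 0.29 passed narrowly (edgeR adjusted p = 0.0378). Without E0771GFP replicate 1, the lowest library, it was 0.17 and did not pass (edgeR adjusted p = 0.208); the other 3 calls passed, with log2 fold changes of 3.12 for Notch4, 2.83 for Jag2 and 0.78 for Notch2. The Notch1 call was also lost without EV replicate 1 (0.25, adjusted p = 0.119) or EV replicate 3 (0.29, adjusted p = 0.08), with the filter at 1 CPM (0.068) and in the 6 libraries of the comparison (0.123). Lfng, Mfng and Hes1 were not called, with log2 fold changes of -0.14, -0.01 and -0.34 (edgeR adjusted p = 0.472, 0.965 and 0.0592). Hes1 lay near the threshold: it passed in limma-voom (adjusted p = 0.0403), with no filter (0.0207), with the filter at 1 CPM (0.0312), in the 6 libraries alone without and with the block (0.0299 and 0.0293) and without E0771GFP replicate 3 (0.0227), and it did not pass in DESeq2 (0.0573), with the block in all 21 libraries (0.0668), on either TPM scale (0.997 and 0.995) or without any of the other 5 libraries (0.0705 to 0.242). For Notch3 there were 25 reads in EV cells and 2 reads in E0771GFP cells, a ratio of 9.28 (exact 95% interval 2.31 to 80.8, counting error only). Without E0771GFP replicate 1, which had 0 reads, the ratio was 6.41 (1.6 to 55.9).

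Among the other pathway genes 26 of 41 were called between EV and E0771GFP cells, 22 higher and 4 lower, including 8 of 10 genes of the nuclear complex, all 8 higher, where 58% of all tested genes were called (28.9% higher). When E0771GFP replicate 1 was left out, 21 of 42 were called, again with 8 of 10 in the nuclear complex, and 50.3% of all tested genes. Dll1 averaged 4.1 ± 0.85 CPM in EV cells and 1.58 ± 0.25 CPM in E0771GFP cells (SD, n = 3 each), with a log2 fold change of 1.38 (SE 0.24, edgeR adjusted p = 5.24e-05). Maml2, a Mastermind coactivator, was higher by 1.22 (edgeR adjusted p = 3.72e-06) and Dtx3 lower, by -1.44 (edgeR adjusted p = 7.28e-05). Neurl3, a gene of the Neuralized family, was called at 1.70 with a wide interval of 0.24 to 3.15 (edgeR adjusted p = 0.0413), and missed the threshold whichever EV library was left out and without E0771GFP replicate 2 or 3. These calls passed without E0771GFP replicate 1, in the same direction, with edgeR adjusted p of 0.000153 for Dll1, 3.25e-05 for Maml2, 0.000467 for Dtx3 and 0.0475 for Neurl3.

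**Figure D2:**
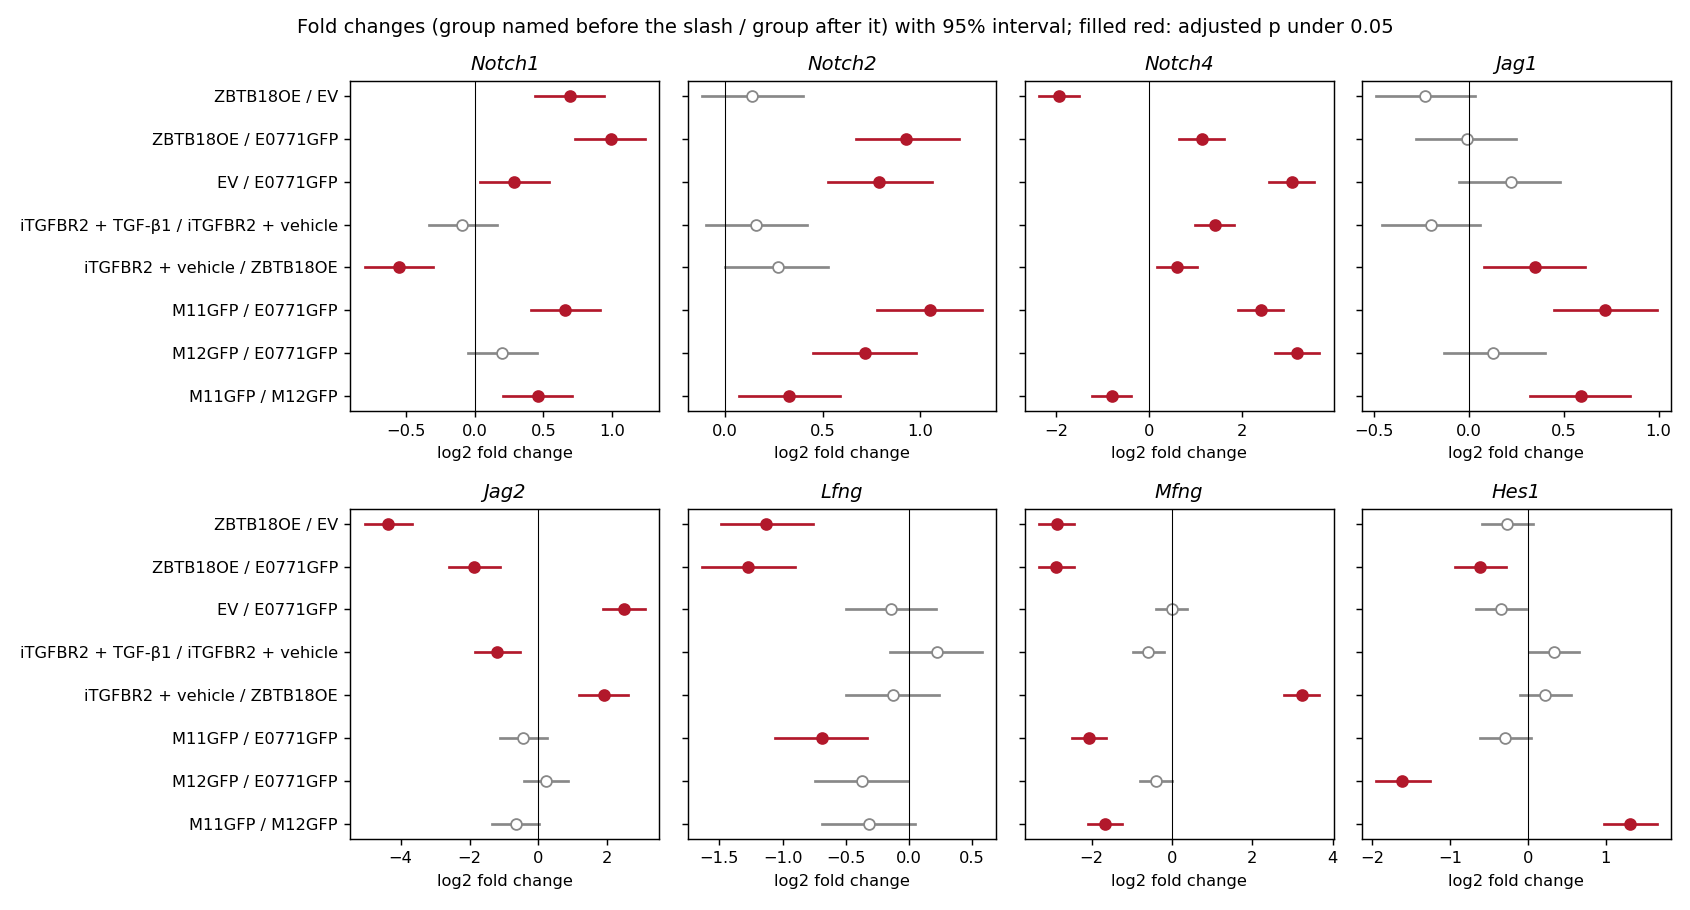
Log2 fold change (horizontal axis) of the 8 tested members in the 8 comparisons, written as the group before the slash over the group after it, with 95% intervals; filled red points passed an edgeR adjusted p of 0.05 and open grey points did not. The horizontal scale differs between panels. Mfng lies at -2.87 in ZBTB18OE against EV cells and at 3.23 in iTGFBR2 cells given vehicle against ZBTB18OE cells.

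The iTGFBR2 line given vehicle differed from ZBTB18OE cells in the inducible receptor and in doxycycline at once, so the effects of receptor, drug and line cannot be told apart. Zbtb18 also differed, at 82.9 ± 6.5 CPM with vehicle and 113 ± 9.6 CPM in ZBTB18OE cells (SD, n = 3 each). Its log2 fold change was -0.45 (edgeR adjusted p = 0.00162), and its part in the differences below was not tested. The iTGFBR2 line given vehicle had more Notch4, Jag1, Jag2 and Mfng and less Notch1 than ZBTB18OE cells. Of 8 tested members 5 were called, 4 higher and 1 lower, with 38.8% of all tested genes called (19.5% higher, 19.3% lower). Mfng had 13.1, 17.2 and 18.7 CPM in iTGFBR2 cells given vehicle, and 1.41 to 2.26 CPM in ZBTB18OE cells. This was a 9.38-fold difference, with a log2 fold change of 3.23 (SE 0.21, edgeR adjusted p = 8.67e-11), and it put Mfng in the receptor line at 16.3 ± 2.9 CPM (SD, n = 3), the highest mean of the 7 groups, with libraries that overlapped those of E0771GFP.

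Lfng did not follow Mfng: it averaged 4.85 ± 0.81 CPM in iTGFBR2 cells given vehicle and 5.33 ± 1 CPM in ZBTB18OE cells (SD, n = 3 each), a log2 fold change of -0.13 (95% interval -0.5 to 0.24, edgeR adjusted p = 0.578). Jag2 had 0.832, 0.876 and 0.853 CPM in iTGFBR2 cells given vehicle, against 0.193, 0.311 and 0.182 CPM in ZBTB18OE cells. It was higher without overlap (log2 fold change 1.90, SE 0.33, edgeR adjusted p = 0.000126) but stayed well under the EV level of 4.7 CPM.

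Notch1 was lower, at 77.4, 71.7 and 62.9 CPM in iTGFBR2 cells given vehicle against 106, 112 and 92.3 CPM in ZBTB18OE cells (log2 fold change -0.55, SE 0.12, edgeR adjusted p = 0.00074). Notch4 and Jag1 were higher by smaller amounts, with log2 fold changes of 0.60 (edgeR adjusted p = 0.0231) and 0.35 (edgeR adjusted p = 0.0297). Both of these calls were lost without iTGFBR2 vehicle replicate 3, at adjusted p of 0.103 and 0.0691. Notch4 was also lost without ZBTB18OE replicate 2 (adjusted p = 0.0913), and Jag1 without ZBTB18OE replicate 1 (0.152) or iTGFBR2 vehicle replicate 2 (0.0796). Hes1 was not called (log2 fold change 0.22, 95% interval -0.1 to 0.55, edgeR adjusted p = 0.263).

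Of the 41 other pathway genes 10 were called between iTGFBR2 cells given vehicle and ZBTB18OE cells, 4 higher and 6 lower. Of all tested genes 38.8% were called in this comparison (19.5% higher, 19.3% lower). Pofut1, the enzyme that adds the O-fucose which fringe enzymes extend, had 53.2, 50.4 and 52.2 CPM in iTGFBR2 cells given vehicle, against 105, 102 and 107 CPM in ZBTB18OE cells. The replicates lay within a few CPM of each other in both groups, and the log2 fold change was -1.01 (SE 0.2, edgeR adjusted p = 0.000543). Dll1 was lower by -0.82 (edgeR adjusted p = 0.0141), a call lost without ZBTB18OE replicate 3 or without iTGFBR2 vehicle replicate 1. Myc, which Notch can activate in some tissues, was higher by 0.57 (edgeR adjusted p = 0.000206).

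In the fit to all 21 libraries, which ignores replicate numbers, few genes were called with TGF-β1, and Notch4 was the clearest of the members. The share of genes called depended on the fit, as given below. Of 8 tested members 2 were called in iTGFBR2 cells given TGF-β1 against those given vehicle, Notch4 higher and Jag2 lower, while 1.91% of all tested genes were called (1.26% higher, 0.654% lower). Notch4 had 10.8, 12.1 and 11.5 CPM with TGF-β1, against 3.85, 4.01 and 5 CPM with vehicle. All 3 TGF-β1 libraries exceeded all 3 vehicle libraries by a wide margin, with a 2.68-fold difference and a log2 fold change of 1.42 (SE 0.2, edgeR adjusted p = 0.000429). The endothelial marker list summed to 0.989 to 1.28 CPM with TGF-β1 and 0.953 to 1.08 CPM with vehicle, with Tie1, Emcn and Cldn5 at 0. The fibroblast list summed to 141 to 149 CPM with TGF-β1 and 118 to 122 CPM with vehicle, with Col1a1, a collagen gene, at 38.8 ± 6.7 CPM with TGF-β1 and 10 ± 1.8 CPM with vehicle (SD, n = 3 each) and Dcn, Lum and Thy1 at 0; its part in the Notch4 difference was not tested. The Notch4 call passed in every alternative tried for this comparison, leaving out each library included.

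Jag2 had 0.319, 0.481 and 0.341 CPM with TGF-β1, 20 to 25 reads per library, against 0.832, 0.876 and 0.853 CPM with vehicle. The ranges did not overlap and the log2 fold change was -1.19 (SE 0.31, edgeR adjusted p = 0.0491), just inside the threshold. The call was lost whichever of the 6 libraries was left out (adjusted p of 0.0734 to 0.246).

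Libraries with the same replicate number deviated together in these 2 groups, so fits with the replicate number as a block stand beside the others. With the block in all 21 libraries the same 2 members were called, Notch4 (edgeR adjusted p = 0.000394) and Jag2 (edgeR adjusted p = 0.0292), where 2.66% of all tested genes were called. The 6 libraries alone, without the block, also gave 2 members, with 9.55% of genes called. With the block in the 6 libraries alone 6 members were called, and 25.6% of the 14131 genes tested there. That fit kept Notch4 (edgeR adjusted p = 4.88e-10) and Jag2 (edgeR adjusted p = 0.000831) and added Mfng, Hes1, Notch2 and Jag1.

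Mfng had 8.39, 10.7 and 13.3 CPM with TGF-β1, against 13.1, 17.2 and 18.7 CPM with vehicle. It was lower in each of the 3 numbered pairs, with a log2 fold change of -0.60 (edgeR adjusted p = 0.103). The adjusted p was 0.0555 with the block in all 21 libraries, 0.116 in the 6 libraries without it and 2.49e-06 in the 6 libraries with it. It also passed in DESeq2 (0.0389), in limma-voom (0.0476) and with no filter in edgeR (0.00618). Hes1 had 26.3, 23.3 and 21 CPM with TGF-β1, against 21.2, 18.6 and 16.1 CPM with vehicle. It was higher in each numbered pair, with a log2 fold change of 0.33 (edgeR adjusted p = 0.336). The adjusted p was 0.323 with the block in all 21 libraries, 0.0936 in the 6 libraries without it and 0.00026 in the 6 libraries with it, the only one of the alternatives tried in which Hes1 passed. Notch2 and Jag1 had log2 fold changes of 0.16 and -0.20, with adjusted p of 0.0021 and 0.0251 in the blocked 6 libraries and 0.578 and 0.421 with the block in all 21. Notch1 and Lfng were called in none of these fits.

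Of all tested genes 1.91% were called with TGF-β1 in the fit without the block, and of the 41 other pathway genes 1 was. This was Furin, the protease of the first receptor cut, which had 144, 135 and 136 CPM with TGF-β1 against 98.8, 112 and 107 CPM with vehicle (log2 fold change 0.39, SE 0.087, edgeR adjusted p = 0.0212). The call was lost whichever library was left out (adjusted p of 0.0529 to 0.137). With the block in all 21 libraries Furin was again the 1 pathway gene called (edgeR adjusted p = 0.00663), where 2.66% of all tested genes were. With the block in the 6 libraries alone 15 of the pathway genes were called, Furin included (edgeR adjusted p = 8.39e-06), where 25.6% of all tested genes were.

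The metastasis-derived lines shared higher Notch2 and Notch4 than the parental line and differed from each other in 6 members. The higher Notch2 and Notch4 were not particular to them, since E0771GFP cells had the lowest mean of the 7 groups for both genes. Against E0771GFP, EV and ZBTB18OE cells had log2 fold changes of 0.79 and 0.93 for Notch2 and 3.08 and 1.15 for Notch4. Of 8 tested members, 6 were called in M11GFP against E0771GFP cells, 4 higher and 2 lower, with 40.7% of all tested genes called (20.8% higher, 20% lower). In M12GFP against E0771GFP cells 3 were called, 2 higher and 1 lower, with 50.1% of all tested genes called (24.9% higher, 25.2% lower). Both comparisons use the same 3 E0771GFP libraries, so the lines were also set directly against each other. Without E0771GFP replicate 1, the same 6 members were called in M11GFP, and the same 3 with Lfng in M12GFP, with 34% and 45.7% of all tested genes called.

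Notch4 had 6.86, 6.64 and 6.72 CPM in M11GFP libraries and 10.3, 14.6 and 10.1 CPM in M12GFP libraries, against 1.3, 1.21 and 1.31 CPM in E0771GFP libraries. The 3 lines did not overlap, and the log2 fold changes were 2.41 in M11GFP (SE 0.23, edgeR adjusted p = 3.1e-08) and 3.20 in M12GFP (SE 0.22, edgeR adjusted p = 2.26e-10). Endothelial markers also stood higher in both lines, at low levels: the summed list of 8 genes had 4.85 to 5.62 CPM in M11GFP, 2.32 to 4.78 CPM in M12GFP and 1.07 to 1.9 CPM in E0771GFP libraries. Pecam1 had 3.12 to 3.16 CPM in M11GFP, 0.287 to 0.43 CPM in M12GFP and 0.085 to 0.17 CPM in E0771GFP libraries. Kdr averaged 0.117 CPM in M11GFP, 0.807 CPM in M12GFP and 0.00947 CPM in E0771GFP cells, and Cdh5 0.524 CPM in M11GFP, 0.448 CPM in M12GFP and 0.0757 CPM in E0771GFP cells. Tie1 averaged 0.0673 CPM in M11GFP, 0.617 CPM in M12GFP and 0.0189 CPM in E0771GFP cells, and Esam 1.32 CPM in M11GFP, 1.55 CPM in M12GFP and 1.26 CPM in E0771GFP cells. Cldn5 was at 0 in all 3 lines, Emcn in M11GFP and E0771GFP and Tek in M11GFP; the part of these markers in the Notch4 difference was not tested. Notch2 had 195, 188 and 231 CPM in M11GFP and 170, 138 and 180 CPM in M12GFP libraries, against 94.9, 93.4 and 108 CPM in E0771GFP libraries. Both lines lay above the parental libraries without overlap, with log2 fold changes of 1.05 (edgeR adjusted p = 7.94e-07) and 0.72 (edgeR adjusted p = 5.55e-05).

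Notch1 was called in M11GFP cells, with 78, 78 and 91.6 CPM and a log2 fold change of 0.66 (SE 0.12, edgeR adjusted p = 0.000119), and not in M12GFP cells, with 58.5, 56.3 and 65.3 CPM and 0.20 (95% interval -0.05 to 0.45, edgeR adjusted p = 0.166). Jag1 had 23, 27.4 and 24.2 CPM in M11GFP and 12.5, 20 and 17.1 CPM in M12GFP libraries, against 14.4, 15.8 and 15 CPM in E0771GFP libraries. M11GFP lay above both other lines, with a log2 fold change against E0771GFP of 0.72 (SE 0.12, edgeR adjusted p = 8.04e-05), and the M12GFP libraries enclosed the parental ones (0.13, 95% interval -0.13 to 0.4). Jag2 was called in neither line, at 0.616 ± 0.04 CPM in M11GFP, 0.966 ± 0.19 CPM in M12GFP and 0.831 ± 0.42 CPM in E0771GFP cells (SD, n = 3 each).

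Mfng had 2.72, 3.04 and 3.46 CPM in M11GFP and 9.69, 10.9 and 8.54 CPM in M12GFP libraries, against 13.9, 13.8 and 10.7 CPM in E0771GFP libraries. M11GFP was far below both, with a log2 fold change of -2.07 against E0771GFP (SE 0.2, edgeR adjusted p = 4.68e-08), while M12GFP at -0.40 did not pass (edgeR adjusted p = 0.0753). Lfng was lower in M11GFP, by -0.69 (edgeR adjusted p = 0.00266). In M12GFP it changed by -0.37 (edgeR adjusted p = 0.0708), a value that passed without E0771GFP replicate 1 (-0.50, edgeR adjusted p = 0.023). Hes1 differed between the lines: it had 17.4, 22.4 and 20.2 CPM in M11GFP and 7.37, 6.36 and 10.4 CPM in M12GFP libraries, against 24.1, 28.4 and 20.9 CPM in E0771GFP libraries. M12GFP lay below every other library, with a log2 fold change of -1.61 (SE 0.16, edgeR adjusted p = 3.88e-08), and M11GFP at -0.29 did not pass (95% interval -0.62 to 0.04, edgeR adjusted p = 0.135).

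Set directly against M12GFP, M11GFP cells differed in 6 of 8 tested members, 4 higher and 2 lower, with 35.5% of all tested genes called (17.7% higher, 17.8% lower). M11GFP had more Hes1 (log2 fold change 1.31, SE 0.16, edgeR adjusted p = 1.73e-06), Jag1 (0.59, SE 0.12, edgeR adjusted p = 8e-04), Notch1 (0.46, SE 0.12, edgeR adjusted p = 0.00389) and Notch2 (0.33, SE 0.12, edgeR adjusted p = 0.0409). It had less Mfng (-1.67, SE 0.2, edgeR adjusted p = 1.48e-06) and Notch4 (-0.80, SE 0.2, edgeR adjusted p = 0.00295). The Notch2 call was lost without M11GFP replicate 1 or 3 and without M12GFP replicate 1 or 2, and the other 5 passed whichever library was left out. Notch2 was also lost in the 6 libraries of the comparison without the block (edgeR adjusted p = 0.0887). On log2(TPM + 1) and log2(TPM + 0.1) in limma, Notch2 (adjusted p = 0.224 and 0.227) and Notch1 (0.0809 and 0.0847) did not pass. Replicate numbers also paired these libraries, and the fits with the block, in all 21 libraries and in these 6, made the same 6 calls (37.1% of all tested genes were called in these 6). The summed blood marker list had 6.72 to 13.4 CPM in M11GFP and 19.8 to 70.2 CPM in M12GFP libraries, in M12GFP nearly all of it Cd68, with Cd3e at 0 in all libraries; its part in these differences was not tested.

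Of the 41 other pathway genes 19 were called in M11GFP against E0771GFP cells, 12 higher and 7 lower, 19 in M12GFP against E0771GFP cells, 13 higher and 6 lower, and 18 in M11GFP against M12GFP cells, 8 higher and 10 lower. The shares of all tested genes called in these comparisons were 40.7%, 50.1% and 35.5%, in that order. The counts without E0771GFP replicate 1 were 12 of 42 in M11GFP and 18 of 42 in M12GFP. Of all tested genes, 34% and 45.7% were then called. Dll1 had 5.1, 4.13 and 4.48 CPM in M11GFP and 11.8, 15.4 and 9.84 CPM in M12GFP libraries, against 1.78, 1.3 and 1.65 CPM in E0771GFP libraries. The 3 lines did not overlap, and the log2 fold changes were 1.54 in M11GFP (edgeR adjusted p = 2.14e-05), 2.97 in M12GFP (edgeR adjusted p = 1.7e-09) and -1.43 in M11GFP against M12GFP (edgeR adjusted p = 3.01e-05). Nrarp, a feedback inhibitor that Notch induces, had 6.92, 5.54 and 9.07 CPM in M12GFP libraries, against 13.1, 15.7 and 16.8 CPM in E0771GFP libraries. It was lower in M12GFP without overlap, with a log2 fold change of -1.08 (SE 0.17, edgeR adjusted p = 1.89e-05). Of the other 3 tested genes on the list of other targets, Ccnd1, a cyclin, and Myc were higher in M12GFP than in E0771GFP cells, by 0.43 and 0.27 (edgeR adjusted p = 0.0045 and 0.0347), and Hes7 was not called (0.18, edgeR adjusted p = 0.592). These calls passed without E0771GFP replicate 1, at 3.07 for Dll1 and -1.18 for Nrarp, 0.38 for Ccnd1 and 0.36 for Myc in M12GFP and at 1.64 for Dll1 in M11GFP.

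Adam17, a protease of the ligand-induced cut, averaged 218 ± 18 CPM in M12GFP and 114 ± 8.3 CPM in E0771GFP cells (SD, n = 3 each), a log2 fold change of 0.93 (edgeR adjusted p = 3.19e-08). Neurl3 was higher in M12GFP by 3.83 with a 95% interval of 2.41 to 5.25 (edgeR adjusted p = 0.000127) and lower in M11GFP than in M12GFP, by -2.22 (edgeR adjusted p = 0.00714). In M11GFP against E0771GFP cells, Maml3 and Mib1 were higher by 0.92 and 0.85 (edgeR adjusted p = 3.21e-07 and 1.83e-07) and Mib2, a relative of Mib1, lower by -0.83 (edgeR adjusted p = 0.0065), a call lost without E0771GFP replicate 1 (adjusted p = 0.0518). Without that library the log2 fold changes were 0.89 for Adam17 and 4.18 for Neurl3 in M12GFP and 0.91 for Maml3 and 0.85 for Mib1 in M11GFP, and all 4 passed. Maml2 and Eogt, an enzyme that adds O-GlcNAc to EGF repeats, were higher in M11GFP than in M12GFP, by 1.18 and 1.03 (edgeR adjusted p = 1.46e-05 and 8.18e-09).

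**Figure D3:**
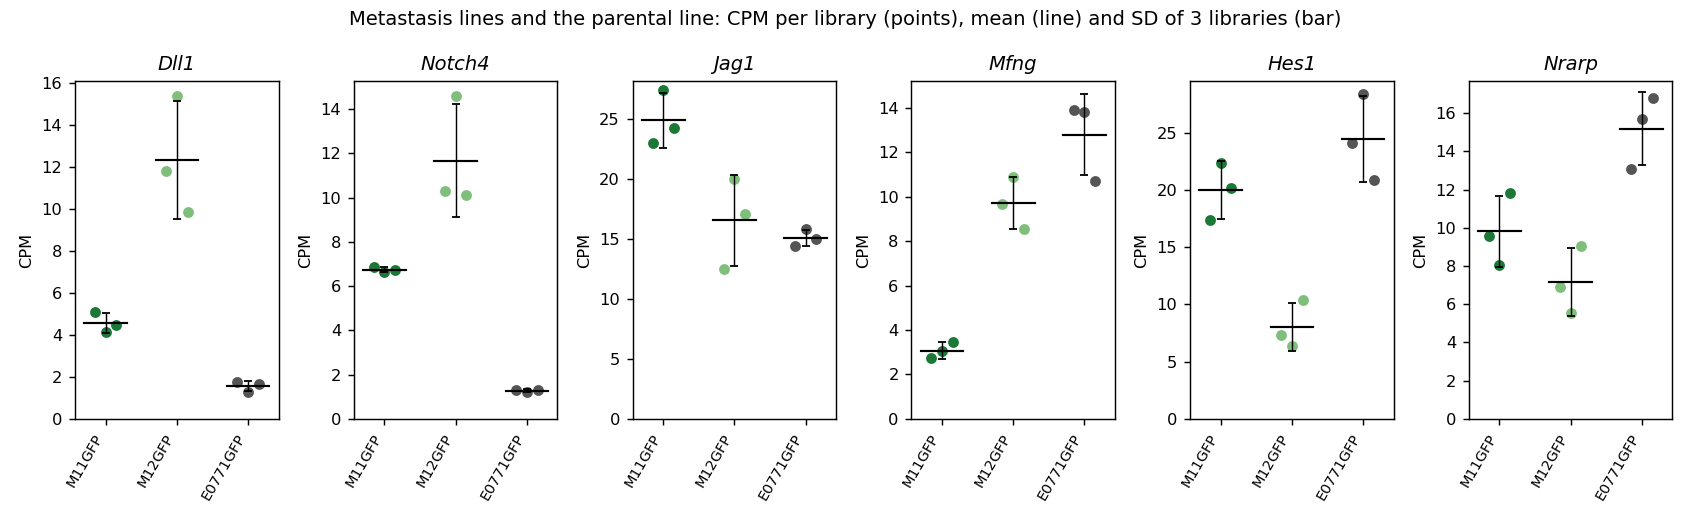
CPM (vertical axes, linear) of the ligands Dll1 and Jag1, the receptor Notch4, the fringe gene Mfng and the targets Hes1 and Nrarp in M11GFP, M12GFP and E0771GFP, with 1 point per library, a line at the mean and a bar for the SD of 3 libraries. Dll1 averages 12.3 CPM in M12GFP and 1.58 CPM in E0771GFP cells, while Hes1 averages 8.03 CPM in M12GFP and 24.4 CPM in E0771GFP cells.

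As shares of summed receptor TPM, Notch2 supplied 54.3 to 67.8% in the group means. Notch1 supplied 44.3 ± 1.6% in ZBTB18OE cells and 34.3 ± 3.2% in EV cells, and Notch4 supplied 1.46 ± 0.33% in ZBTB18OE cells and 6.56 ± 1.5% in EV cells (SD, n = 3 each), with no overlap between those groups for either gene. With TGF-β1 the Notch4 share was 5.92 ± 0.58%, against 2.57 ± 0.52% with vehicle. The highest Notch4 share was in M12GFP, at 8.22 ± 3.1%, where single libraries ran from 6.32 to 11.8%. Summed receptor TPM was 34.9 to 50.6 in 6 groups and 19.9 ± 5.8 in E0771GFP cells (14.2, 19.8 and 25.8 in its libraries, and 22.8 on average without replicate 1, where Notch2 supplied 51.2%).

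Within the fringe family, Rfng (radical fringe) carried 76.5 ± 3.1% of summed TPM in ZBTB18OE cells and 40.3 ± 0.76% in EV cells (SD, n = 3 each). Its share in M11GFP cells was 66.7 ± 2.4%. Summed fringe TPM was 24.2 ± 0.71 in ZBTB18OE cells and 35.2 ± 2.6 in EV cells. Rfng itself had 25.3 ± 0.33 CPM in ZBTB18OE cells and 20.2 ± 1 CPM in EV cells (log2 fold change 0.33, edgeR adjusted p = 0.0239). The ratio of Mfng to Lfng TPM was 0.394 ± 0.17 in ZBTB18OE cells and 0.424 ± 0.0047 in M11GFP cells, near 1 in M12GFP (0.996 ± 0.25), EV (1.14 ± 0.19) and E0771GFP (1.02 ± 0.29, and 0.872 without replicate 1) cells. In iTGFBR2 cells it was 1.79 ± 0.59 with TGF-β1 and 3.51 ± 1.2 with vehicle. The iTGFBR2 line thus had more Mfng than Lfng TPM with either treatment. Its Lfng averaged 5.65 CPM with TGF-β1 and 4.85 CPM with vehicle, against 11.6 CPM in EV and 12.9 CPM in E0771GFP cells. Its Mfng averaged 10.8 CPM with TGF-β1 and 16.3 CPM with vehicle, against 12.7 CPM in EV and 12.8 CPM in E0771GFP cells.

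**Figure D4:**
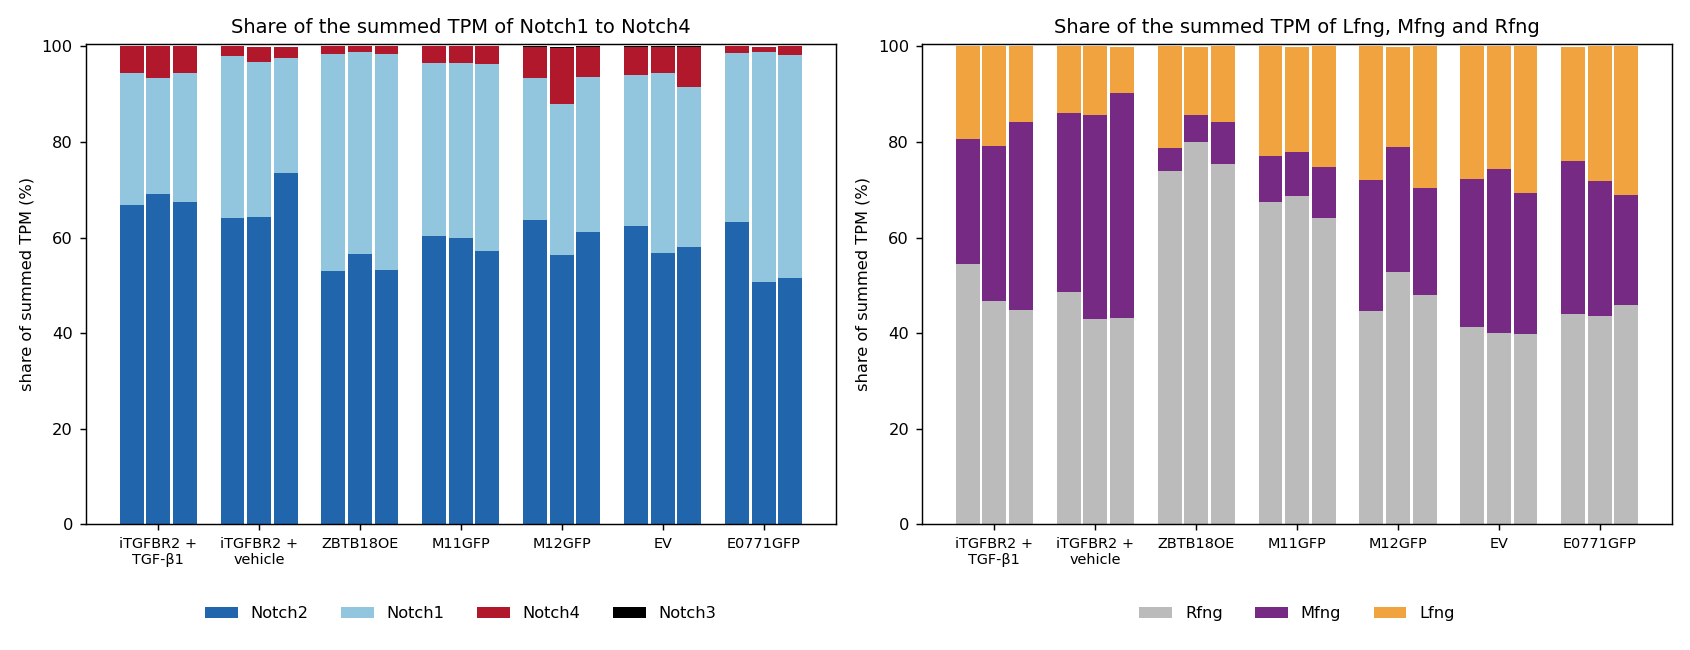
Share of summed TPM (vertical axis, percent) of the 4 receptors (left) and of the 3 fringe genes (right), with 1 stacked bar per library and 3 bars per group. Rfng fills 74 to 80% of the fringe bars in ZBTB18OE cells and 39.8 to 41.2% in EV cells.

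Ordered by mean CPM over the 7 groups, Notch1 was highest in ZBTB18OE and then in M11GFP cells (104 and 82.6 CPM). Neither group overlapped the next one, but the gaps were narrow. The lowest ZBTB18OE library had 92.3 CPM and the highest M11GFP library 91.6 CPM. The lowest M11GFP libraries had 78 CPM and the highest iTGFBR2 vehicle library 77.4 CPM. These neighbouring groups were not tested against each other. The libraries of the lower 5 groups overlapped each other in turn. Notch2 ran from 254 CPM in iTGFBR2 cells given TGF-β1 to 98.9 CPM in E0771GFP cells. The lowest TGF-β1 library, at 240 CPM, lay just above the highest vehicle library, at 239 CPM. Notch2 was not called between these 2 groups (log2 fold change 0.16, edgeR adjusted p = 0.679). E0771GFP stood apart at the lower end, and the libraries of the groups between overlapped in turn. Notch4 was highest in M12GFP, iTGFBR2 with TGF-β1 and EV, whose libraries overlapped (11.7, 11.5 and 10.7 CPM), then in M11GFP (6.74 CPM), which overlapped EV only, and in 3 lower groups without overlap, iTGFBR2 with vehicle, ZBTB18OE and E0771GFP (4.29, 2.81 and 1.27 CPM). Among the tested members, the span between the highest and the lowest group mean was widest for Jag2, at 20.5-fold, followed by Mfng at 9.44-fold and Notch4 at 9.19-fold; it was 3.04-fold for Hes1, 2.65-fold for Lfng, 2.57-fold for Notch2, 1.98-fold for Notch1 and 1.66-fold for Jag1.

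Across the 21 libraries, members varied with and against each other. On log2(CPM + 1) values the lowest Pearson correlation was between Notch1 and Mfng (r = -0.804) and the next between Notch2 and Lfng (r = -0.706). The highest was between Notch2 and Notch4 (r = 0.548), and Hes1 correlated with no receptor beyond r = -0.366, its value with Notch4. These are descriptions over libraries that share lines and comparators, 3 per group, and carry no test.

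The genes whose pattern was most like each member were found among 10148 tested genes with at least 5 CPM in the highest group. For Notch1 they were Rhot2 and Cops7b (r = 0.913 for both), for Notch2 Parp4 (0.952) and Trp53bp2 (0.951), and for Notch4 Zbtb38 (0.893) and Ptpre (0.886). For Jag1 they were Sspo (0.877) and Prex1 (0.873), and for Jag2 Kcnip1 (0.916) and Nhsl2 (0.9). For Lfng they were Psd4 (0.916) and Pcolce (0.913), for Mfng Pnp2 (0.926) and Gadd45b (0.923), and for Hes1 Kdelr1 (0.94) and Rgma (0.917). The points are the same 21 libraries in each case, with 3 per group, so a gene that differs between lines in the same order gives a high value.

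On build mm10, the tested members lie on chromosomes 2 (Notch1, 26457903 to 26516663, and Jag1, 137081456 to 137116644, both on the minus strand), 3 (Notch2, 98013527 to 98150361, plus), 17 (Notch4, 34564268 to 34588503, plus), 12 (Jag2, 112907819 to 112929776, minus), 5 (Lfng, 140607320 to 140615545, plus), 15 (Mfng, 78755882 to 78773475, minus) and 16 (Hes1, 30064384 to 30067796, plus). Exons of Notch2 overlap Gm42820 on the same strand, which had 0.437 to 1.3 CPM, so a small part of its reads could be shared. Exons of Notch1 overlap Gm13568 and 0610009E02Rik on the opposite strand, at 0 to 0.0458 and 0.0793 to 0.845 CPM. The library kit keeps strand, but the strand setting of the counting is not given in the sources used here.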

How the data were processed

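PolyA-selected RNA was sequenced in 21 libraries, 3 per group, with groups and replicate numbers read from the sample titles. The authors deposited expected counts per gene from RSEM, not normalised, and TPM scaled by RSEM for effective length; a deposited FPKM table was not used. The submitters' processing notes name RSEM, GATK 4.1.2.0, STAR 2.7.1a and Trim Galore, and the genome build mm10; the order of steps, the annotation release and the strand setting are not given in the sources used here. Effective lengths can differ between libraries, and TPM of E0771GFP replicate 1 is lowered by its large Gm42418 share.

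Counts were rounded (1.28% were not whole, since RSEM splits multi-mapped reads), and 92 spike-in entries with 0 reads were left out. In R 4.3.3, edgeR 4.0.16 with TMM and its filter by group tested 15432 of 55573 genes with a robust quasi-likelihood F-test, fitting a mean for each group to the 21 libraries together, with 14 residual degrees of freedom, two-sided, Benjamini-Hochberg adjusted over all genes, threshold 0.05. The SE is the absolute log2 fold change divided by the square root of F. The tests were checked on simulated counts. With 3 libraries against 3 an exact permutation test cannot go below 0.1, so none was used.

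Alternatives were DESeq2 1.42.0, its size factors, limma 3.58.1 (voom, log2(TPM + 1) and log2(TPM + 0.1)), other filters, the 6 libraries of a comparison, a replicate block, and leaving out each library. Deviations of same-numbered libraries from their group means correlated over 0.1 in all 3 pairs in 2 of the 8 comparisons: TGF-β1 against vehicle (0.52, 0.29 and 0.59) and M11GFP against M12GFP (0.23, 0.48 and 0.33). No pair of libraries agreed within sampling noise.

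The members and lists were chosen with earlier results of these data known. All members are named; of 49 other pathway genes, up to 4 called genes per comparison with the largest fold change and at least 1 CPM in the higher group; and for each tested member the 2 genes with the highest Pearson correlation of log2(CPM + 1), with a pseudocount of 1. A gene that this rule selects is not reported here. Positions are from GENCODE vM21, which holds 99.3% of the gene identifiers. Intervals on pooled counts cover counting error only, since reads carry no molecular identifiers.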

Additional observations from a re-analysis of the deposited data

Results flagged for a closer look

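For 6 members the change against E0771GFP differed between M11GFP and M12GFP, by the test of M11GFP against M12GFP in edgeR, in which the parental libraries cancel. The difference on the log2 scale, M11GFP minus M12GFP, was 1.31 for Hes1, 0.59 for Jag1, 0.46 for Notch1, 0.33 for Notch2, -0.80 for Notch4 and -1.67 for Mfng. The Notch1 and Notch2 differences did not pass on the TPM scales, and that of Notch2 was lost in further alternatives, as given above. Notch4 was above the parental level in both lines, and the lines differed in how far. Mfng had 3.07 ± 0.37 CPM in M11GFP, 9.71 ± 1.2 CPM in M12GFP and 12.8 ± 1.8 CPM in E0771GFP cells (SD, n = 3 each). Each line is 1 derivative of E0771GFP, so the metastatic origin and the single line cannot be told apart.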

How the results depend on the processing

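Of 1488 recomputed values of single genes, 1375 kept direction and side of the threshold, 60 fell below it, 33 came above it and 20, none of them a called value, changed sign; the cause was not tested. The sign changes on log2(TPM + 1) and log2(TPM + 0.1) were against E0771GFP for Jag1 in ZBTB18OE (0.25 and 0.30) and for Lfng (0.13 and 0.14), Mfng (0.29 and 0.32) and Hes1 (0.00 in both) in EV, and for Lfng in iTGFBR2 vehicle against ZBTB18OE (0.01 in both). TPM also moved the median gene by up to 0.31 against E0771GFP, and put 75.4 to 78.4% of calls higher there, against 48.4 to 51% in edgeR. Leaving out 1 library changed the sign of Notch2 in ZBTB18OE against EV (-0.00 to 0.26), Jag1 in ZBTB18OE against E0771GFP (-0.06 to 0.08), Mfng in EV against E0771GFP (-0.12 to 0.07), Lfng in iTGFBR2 vehicle against ZBTB18OE (-0.25 to 0.03), and Jag1 (-0.02 to 0.30) and Jag2 (-0.12 to 0.54) in M12GFP against E0771GFP.

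Counts moved by over 1.5 times as follows. TGF-β1 against vehicle gave 295 genes, and 594 in DESeq2, 633 with no filter, 112 and 81 on the TPM scales, 1349 in its 6 libraries, 3623 with the replicate block in those (411 with the block in all 21) and 71 to 183 without 1 library; members gave 2, and 1 on both TPM scales, 6 with that block and 1 without any library; other pathway genes gave 1, and 3 with no filter or in 6 libraries, 0 on TPM, 15 with that block and 0 without any library. In iTGFBR2 vehicle against ZBTB18OE, members gave 5, and 3 on TPM and 3 to 5 without 1 library (3 without vehicle replicate 3); other pathway genes gave 10, and 6 on TPM, 17 with the 6-library block and 6 to 10 without 1 library (6 without vehicle replicate 3). Against E0771GFP, members in ZBTB18OE gave 7, and 4 on log2(TPM + 1); all genes in M11GFP gave 6288, and 4015 in 6 libraries, and its other pathway genes 12 to 22 without 1 library; all genes in M12GFP gave 7737, and 5113 in 6 libraries and 5020 with their block, and its members 3, and 5 with no filter and 3 to 5 without 1 library (5 without E0771GFP replicate 3). M11GFP against M12GFP gave 5474 genes, and 3497 in 6 libraries, and other pathway genes in ZBTB18OE against EV gave 9, and 19 in 6 libraries with or without the block. The 6-library block was chosen after seeing the data; the block over all 21 libraries changed 1 other member call (Mfng in M12GFP, -0.41, adjusted p = 0.0468). Without M12GFP replicate 1, Jag1 was called in M12GFP against E0771GFP (0.30), without M12GFP replicate 3 Lfng (-0.53), and without E0771GFP replicate 3 Notch1 (0.30) and Mfng (-0.52) there, Jag2 in M11GFP (-0.78) and Hes1 in EV (-0.44). Outside EV, Jag2 rests on 10 to 75 reads per library.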
